A study of Mus musculus with 6 samples.

Results

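Umod encodes uromodulin, also known as Tamm-Horsfall protein, and is 1 of the 456 genes of the panel counted here in 22154 single kidney cells. It was chosen by name, and its counts were summed over the cells of each of the 15 classes that the authors gave, in each of 6 libraries. The cells came from WT C57BL/6J mice aged 16 weeks (the strain label reads C57BL/6). The furosemide group (libraries 2, 4 and 6) received furosemide at 70 mg/kg body weight for 1 week. The vehicle group (libraries 1, 3 and 5, named ctrl in the annotation) received the vehicle for the same time. Both groups ate a gel diet of steady sodium content, 104 µmol per kcal. Nothing in the labels says whether the 3 libraries of a treatment came from separate animals, so that p-values measure the spread between these libraries.

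Uromodulin is made by the thick ascending limb (TAL) and, at a lower level, by the early distal convoluted tubule (DCT). It matures in the endoplasmic reticulum, is anchored in the apical membrane, is cut by the protease hepsin (Hpn) and forms filaments in the lumen, and it is the most abundant protein of normal urine. In the TAL it is known to promote the activity of the sodium-potassium-chloride cotransporter NKCC2 (Slc12a1), which is the transporter that furosemide blocks. TAL cells are a mosaic. Some carry claudin-10 (Cldn10), which forms a pathway for sodium between cells, and others claudin-16 (Cldn16), which is needed for magnesium and calcium to pass.

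The promoter is shown as the stretch before the start of the transcript whose counts are compared here. It spans the 250 bases before the RefSeq start, on the minus strand at chr7:119479263-119479512 of GRCm38.p6.

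Umod promoter: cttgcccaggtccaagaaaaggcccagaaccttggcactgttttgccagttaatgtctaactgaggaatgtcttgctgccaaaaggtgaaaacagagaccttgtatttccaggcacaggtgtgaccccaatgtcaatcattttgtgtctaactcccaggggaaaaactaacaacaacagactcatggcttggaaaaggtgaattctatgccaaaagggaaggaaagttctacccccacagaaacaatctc

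Neither AAGGTCA, the site of estrogen-related receptors, nor TATAAA, the TATA box, was in this window on either strand. They occur in 4.08% and 12.4% of 32851 mouse promoter windows of the same length. The Egf and Slc12a1 windows held neither as well.

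Total panel counts per library were 4928550 to 7635509 with furosemide and 4819988 to 6315516 with vehicle, and both treatments had 11077 cells. Of the cells, 392 (1.77%) carried a barcode number that also occurred in a second library. The 6 TAL markers other than Umod held 25.8% to 29.8% of TAL counts with furosemide and 24.3% to 26.2% with vehicle. In DCT cells the same 6 held 6.03% to 7.51% with furosemide and 7.13% to 9.12% with vehicle. The 3 DCT markers held 9.62% to 11.5% of DCT counts with furosemide and 9.32% to 11.6% with vehicle, and at most 0.0229% of TAL counts in any library.

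Umod was the first gene of the TAL class by counts. It made up 23.8%, 22.2% and 19.6% of the panel counts of TAL cells in furosemide libraries 2, 4 and 6, against 18.2%, 22.6% and 23.3% in vehicle libraries 1, 3 and 5. DCT cells came next, with 13.2%, 9.37% and 9.87% in the furosemide libraries and 8.92%, 13.9% and 10.7% in the vehicle libraries. No DCT library reached the lowest TAL library, and the mean DCT level (109921 ± 20683 counts per 1000000 panel counts, CPM, SD, n = 6) was 50.8% of the mean TAL level (216352 ± 22417 CPM). Classes were made by the authors from these genes, so the order of classes is a description with no test.

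All other classes lay far below. DCT2, the late part of the DCT, averaged 6071 CPM, BIC (type B intercalated cells) 5258 CPM and the thin limb 4410 CPM. AIC (the authors' label, read as type A intercalated cells) followed with 2078 CPM, podocytes and other glomerular cells with 937 CPM, the class that the authors call principal cells of the outer medullary collecting duct (OMCD) with 683 CPM and immune cells with 577 CPM. The connecting tubule (CNT) averaged 537 CPM, proximal s1/s2 cells 512 CPM, the authors' mystery cells 456 CPM, principal cells of the cortical collecting duct (CCD) 435 CPM, proximal s1/s2/s3 cells 369 CPM and proximal s2/s3 cells 225 CPM. DCT did not overlap with DCT2 over libraries, whereas each pair of neighbours from DCT2 down did. The lowest DCT2, BIC and thin limb libraries, at 3232, 2995 and 1927 CPM, still lay above every library of the classes from podocytes down, of which the highest had 1919 CPM. AIC overlapped with both sides, and stood above podocytes in 6 of 6 libraries.

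The authors' annotations name the OMCD cells in different ways. In the second clustering, 241 of the 373 cells of the OMCD class are in the cluster AIC and the other 132 in AIC sub2. The type A set of intercalated markers (Slc4a1, Aqp6 and Atp6v1g3) shares Atp6v1g3 with the type B set. In BIC cells the type A set held 8.76% to 10.3% of counts with furosemide and 7.60% to 8.62% with vehicle. Its sum thus does not mark type A cells alone. The OMCD class held 7.03% to 7.83% of its counts in this set with furosemide and 7.17% to 10.1% with vehicle. Type B markers held 3.26% to 4.33% of OMCD counts with furosemide and 3.06% to 3.40% with vehicle. Markers of principal cells held 4.74% to 5.33% there with furosemide and 4.95% to 5.56% with vehicle, so intercalated and principal markers were both present. The AIC class held 11.7% to 22.3% of its counts in connecting tubule markers with furosemide and 10.4% to 13.0% with vehicle. No BIC library passed 2.46% for these. The type A set held 7.42% to 12.6% of AIC counts with furosemide and 10.8% to 12.2% with vehicle. AIC is therefore used as the authors' label.

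**Figure D1:**
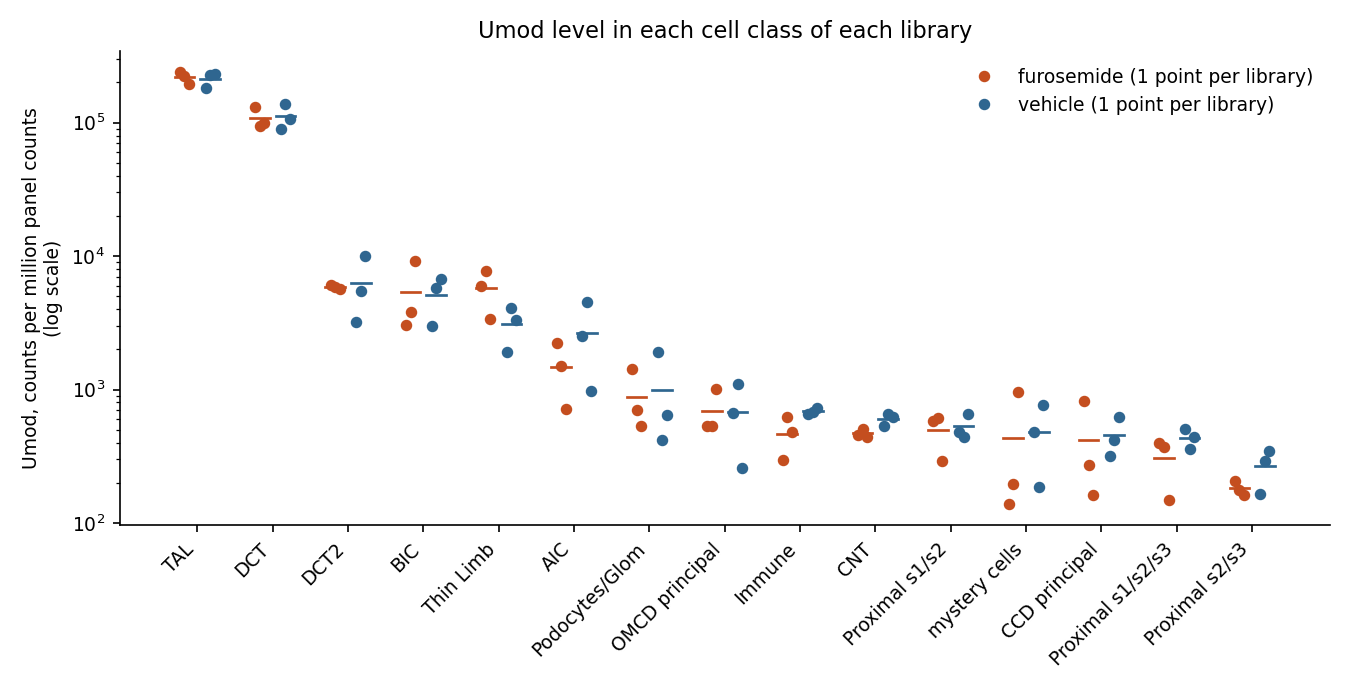
Umod level in CPM on a log axis (vertical) for the 15 classes in order of their mean (horizontal), with 1 point per library and lines at the mean of 3 libraries, furosemide left of vehicle. TAL and DCT libraries stand above all others, at 181660 to 238407 and 89156 to 138870 CPM, and the 2 treatments overlap in both.

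Nearly every TAL and DCT cell had a Umod count. The share was 99.6% to 100% of TAL cells and 99.4% to 100% of DCT cells over the 6 libraries. Immune cells, which are not known to make uromodulin, were taken as the background. Among them 18.6% to 33.3% had a count, at a median of 573 to 1007 panel counts per cell. After each cell was thinned to 500 counts (20871 cells; 548 furosemide and 735 vehicle cells were shallower), the share in immune cells averaged 16.7% with furosemide and 20.3% with vehicle. Thinned shares of the proximal, CNT and CCD classes averaged between 8.73% and 14.5% with furosemide and between 12.4% and 18.8% with vehicle, below the means of immune cells in both groups, and are not read as expression. The OMCD class had 18.4% with furosemide and 18.3% with vehicle, and podocytes and other glomerular cells 19.7% with furosemide and 22.7% with vehicle. Libraries of both classes overlapped with those of immune cells, which ran from 12.0% to 22.1% with furosemide and from 18.5% to 22.2% with vehicle, though single podocyte libraries reached 26.7% with furosemide and 25% with vehicle. BIC cells averaged 67.0% with furosemide and 65.6% with vehicle, the thin limb 52.3% with furosemide and 43.5% with vehicle, DCT2 45.4% with furosemide and 63.7% with vehicle, and AIC 28.1% with furosemide and 33.9% with vehicle. These 4 classes stood above immune cells in both groups.

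Umod was next set beside Slc12a1, its companion in TAL cells, in each class. In TAL cells there were 2.57, 2.44 and 1.94 Umod counts per Slc12a1 count in furosemide libraries 2, 4 and 6 and 2.0, 2.34 and 2.65 in vehicle libraries 1, 3 and 5. The proximal classes summed had 3.94, 3.05 and 2.85 with furosemide and 2.53, 2.52 and 2.37 with vehicle. Immune cells had 2.0, 5.07 and 2.44 with furosemide and 1.93, 1.96 and 2.07 with vehicle, so both lay near the TAL ratio in every vehicle library. With furosemide the proximal ratio lay above the TAL ratio in all 3 libraries. In BIC cells the ratio was 13.8, 89.3 and 143 with furosemide and 25.9, 54.5 and 33.2 with vehicle, and in the thin limb it was 16.1, 41.1 and 26.3 with furosemide and 10.1, 9.14 and 12.3 with vehicle. In these classes, and in DCT2 (38.6 to 97.3 over libraries), Umod thus stood apart from Slc12a1 in all 6 libraries. AIC cells lay nearer to the TAL ratio, at 2.84, 5.0 and 6.56 with furosemide and 4.38, 3.78 and 6.0 with vehicle.

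BIC cells are known for the apical anion exchanger pendrin and not for uromodulin. Their Umod counts averaged 8.75 per cell over libraries, and none of the 626 BIC cells reached the level of TAL cells, set in each library at the 10th percentile of its TAL cells (0 of 626 allows a share of such cells of up to 0.479%). Their Umod was also high beside Egf, the gene of pro-epidermal growth factor and the second gene of the TAL by counts. BIC cells had 12.2, 51.0 and 78.7 Umod counts per Egf count with furosemide and 12.4, 28.9 and 16.9 with vehicle, whereas TAL cells had 1.26 to 1.64 with furosemide and 1.52 to 1.74 with vehicle. AIC cells, by contrast, had 1.61 to 1.97 Umod counts per Egf count with furosemide and 1.83 to 3.0 with vehicle. Of all their Umod counts, 39.0% sat in 3 of 340 cells at TAL level, which also held 95 Slc12a1 counts. These cells were in vehicle libraries 1 and 3 only, where they held 61.2% and 72.9% of AIC Umod counts. Without them the AIC level in these libraries was 986 and 1256 CPM.

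DCT cells carried Umod almost without Slc12a1. Of the 1901 DCT cells, 835 (43.9%) reached the level of TAL cells. These held 240933 Umod counts and 424 Slc12a1 counts, whereas the TAL cells above the same level held 1460988 Umod counts and 588854 Slc12a1 counts. Umod per Egf count in the DCT class was 2.13, 2.01 and 1.95 in furosemide libraries 2, 4 and 6. These values lay above the 1.39, 1.64 and 1.26 of TAL cells in the same libraries. In vehicle libraries 1, 3 and 5 it was 1.39, 1.79 and 1.91, close to the 1.52, 1.74 and 1.73 of TAL cells. The DCT values did not overlap between treatments.

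**Figure D2:**
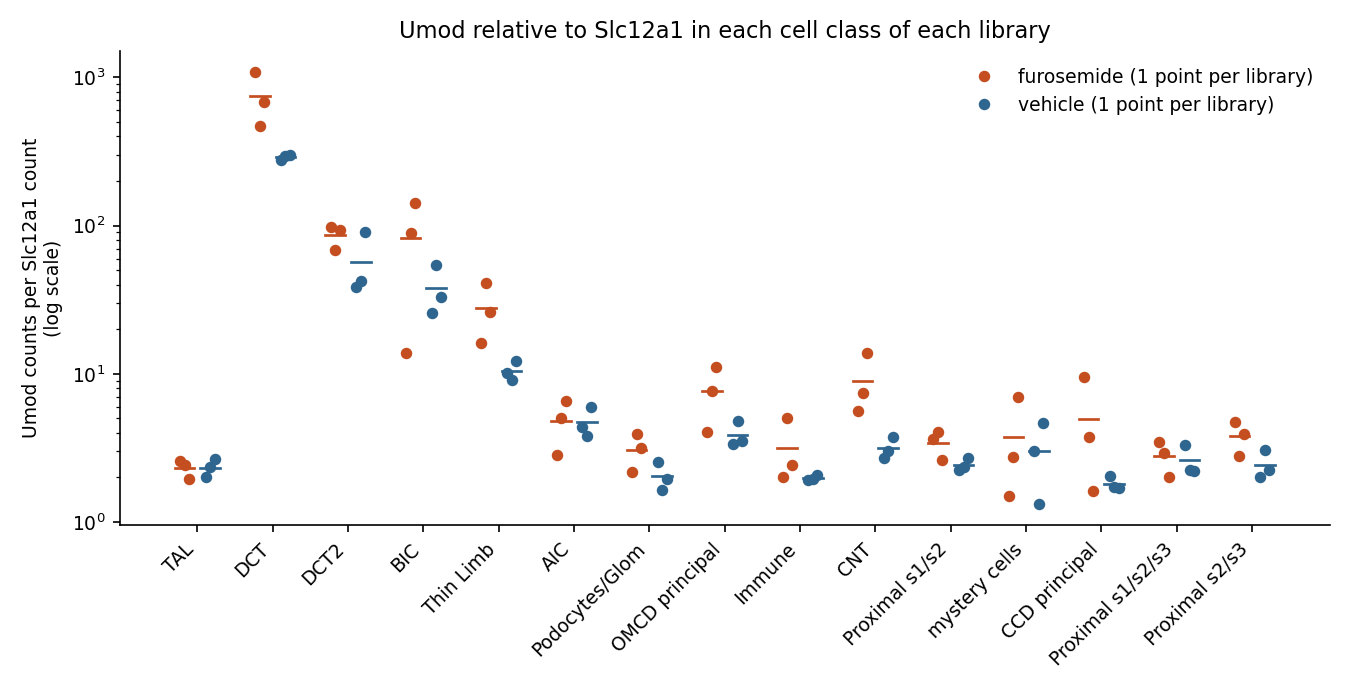
Umod counts per Slc12a1 count on a log axis (vertical) for the 15 classes in order of their Umod level (horizontal), with 1 point per library and lines at the mean of 3 libraries, furosemide left of vehicle. DCT libraries lie at 275 to 1084, TAL libraries at 1.94 to 2.65, and the furosemide libraries of the DCT class stand above its vehicle libraries.

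Furosemide left the Umod level of TAL cells within the spread of the libraries. The log2 change was 0.14 ± 0.17 (SE, edgeR's quasi-likelihood test, adjusted p = 0.701), and the highest and the lowest TAL library of all were a furosemide and a vehicle library, with the others mixed. Of 317 genes tested in TAL cells, 15 (4.73%) were called at an adjusted p under 0.05. Slc12a1 itself, at 9.48 ± 0.54% of TAL counts with furosemide and 9.17 ± 0.44% with vehicle (SD, n = 3 each), did not pass either (0.16 ± 0.16, adjusted p = 0.653). Egf averaged 15.4 ± 1.8% with furosemide and 12.8 ± 0.8% with vehicle and also missed (0.38 ± 0.17, adjusted p = 0.340).

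Umod in DCT cells did not pass the test either (0.05 ± 0.24, edgeR's adjusted p = 0.959, 13 of 275 genes or 4.73% called), and its sign turned with scaling by library size alone (-0.05). Leaving out vehicle library 1, furosemide library 2 or vehicle library 5 turned it as well, to values down to -0.14. In the main cluster of DCT cells (DCT sub1) Umod was 12.9%, 9.04% and 9.28% of counts with furosemide and 8.63%, 13.4% and 10.5% with vehicle. The small DCT sub2 cluster, with 22 to 54 cells per library, had more Umod than DCT sub1 in each library, at 16.6%, 14.5% and 14.1% with furosemide and 15.1%, 17.7% and 13.2% with vehicle.

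Slc12a1 counts in DCT cells fell, and their change was below 0 in every other class tested outside the TAL. They made up 0.0155 ± 0.0039% of DCT counts with furosemide and 0.0385 ± 0.0076% with vehicle (SD, n = 3 each; log2 change -1.23 ± 0.23, edgeR's adjusted p = 0.0113). Umod per Slc12a1 count was accordingly 1084, 474 and 682 in the DCT cells of furosemide libraries 2, 4 and 6, against 275, 296 and 298 in those of vehicle libraries 1, 3 and 5. The groups did not overlap (two-sided exact permutation test p = 0.1, the smallest that 3 against 3 libraries allow). Of the 14 classes in which Slc12a1 was tested, 13 had a change below 0, with TAL as the exception, and 2 were called, DCT and CNT (-1.52 ± 0.33, edgeR's adjusted p = 0.0389). An unadjusted p under 0.05 was reached in 7, which were these 2, CCD (-1.55 ± 0.36), immune cells (-1.29 ± 0.31) and the 3 proximal classes (-1.07 to -0.64). Umod per Slc12a1 count was also higher in every furosemide library than in any vehicle library in CNT, at 5.65 to 13.8 with furosemide and 2.70 to 3.74 with vehicle, and in the thin limb and the summed proximal classes with the values given above. The share of TAL cells in a library, which moved with it, was 11.7%, 15.7% and 12.4% with furosemide and 23.5%, 24.8% and 22.8% with vehicle, and its part in these values was not tested.

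Umod passed the test in none of the 15 classes (edgeR, 0 of 15 also at an unadjusted p under 0.05, and likewise with DESeq2 and limma-voom). The lowest unadjusted p of edgeR's test was 0.0918, for immune cells (-0.64 ± 0.33), and the largest change upward was in the thin limb (0.65 ± 0.37, adjusted p = 0.492), where 1.88% of genes were called. Genes called made up 5.08% in CNT, 1.42% in DCT2, 2.29% in mystery cells, 0.408% in BIC, 0.418% in podocytes and glomerular cells and 0% in the others outside TAL and DCT. The summed proximal classes had -0.40 ± 0.23 (adjusted p = 0.726, 0.299% of genes called). The treatment effect in TAL cells minus that in another segment was 0.51 ± 0.26 for the summed proximal classes (adjusted p = 0.423), 0.16 ± 0.23 for DCT (0.738), 0.25 ± 0.22 for CNT (0.718) and 0.54 ± 0.58 for CCD (0.694), as interactions in edgeR with the library as a block. None of the 4 passed, also at an unadjusted p under 0.05, where genes called were 1.38%, 9.65%, 0.311% and 0% of those tested in these pairs.

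The share of cells with a Umod count was lower in every furosemide library than in every vehicle library in 3 classes. It averaged 31.3% with furosemide and 39.5% with vehicle in CNT, 23.8% with furosemide and 34.0% with vehicle in podocytes and glomerular cells, and 20.3% with furosemide and 27.8% with vehicle in proximal s1/s2/s3 cells (exact permutation test p = 0.1 each, adjusted p = 0.5 over 15 classes). After thinning the groups still did not overlap in CNT (14.5% with furosemide, 18.8% with vehicle) and did overlap in the other 2 classes. The CNT and proximal shares were below those of immune cells at equal depth. The share of TAL cells in a library, with the values given above, moved the same way, and its part in these shares was not tested.

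DCT2 cells, whose share of cells with a Umod count stood above that of immune cells, also split by treatment once depth was equal. After thinning, 38.0% to 49.5% of DCT2 cells had a count with furosemide and 55.4% to 80.0% with vehicle (exact permutation test p = 0.1, adjusted p = 0.5 over 15 classes). Without thinning the groups met, at 62.0% to 72.4% with furosemide and 72.0% to 90% with vehicle. Cells with 2 or more counts averaged 48.0% with furosemide and 67.8% with vehicle, and those with 5 or more 25.5% with furosemide and 46.3% with vehicle, again without overlap (exact permutation test p = 0.1 each). The level did overlap, at 5704 to 6085 CPM with furosemide and 3232 to 10054 CPM with vehicle. The CV, the standard deviation of Umod over cells divided by its mean, was 3.15, 3.74 and 2.58 in the DCT2 cells of furosemide libraries 2, 4 and 6, against 1.37, 2.06 and 1.80 in those of vehicle libraries 1, 3 and 5. At equal depth, a smaller part of DCT2 cells thus had Umod counts in each furosemide library than in any vehicle library. The CV was higher in each furosemide library as well. Furosemide libraries 2, 4 and 6 each had 1 DCT2 cell at TAL level, which held 36.0%, 43.1% and 20.7% of DCT2 Umod counts. Vehicle library 5 had 1 such cell with 20.7%, and vehicle libraries 1 and 3 had none. Without these cells the level was 3941, 3395 and 4565 CPM with furosemide and 3232, 5486 and 8128 CPM with vehicle. Their part in the CV was not tested.

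Over all cells, Umod was lower in every furosemide library than in any vehicle library. It made up 4.24%, 4.58% and 3.67% of panel counts in furosemide libraries 2, 4 and 6, against 5.20%, 7.02% and 6.71% in vehicle libraries 1, 3 and 5. The groups did not overlap, but the change missed the threshold in edgeR's test (log2 -0.51 ± 0.15, adjusted p = 0.141, 19 of 426 genes or 4.46% called) and passed it with DESeq2 (-0.49, adjusted p = 0.0197). Counts per cell of the library were 68.5, 78.7 and 53.4 with furosemide and 80.4, 129 and 87.9 with vehicle.

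With the shares of the 15 classes held at their mean over libraries, Umod counts per cell came to 89.9, 87.2 and 73.5 with furosemide and 65.9, 104 and 76.9 with vehicle. These groups overlapped, and the log2 ratio of their means was 0.02. TAL cells gave 66.1%, 79.8% and 75.6% of all Umod counts in the furosemide libraries and 85.5%, 85.3% and 90.1% in the vehicle libraries. DCT cells gave 32.2%, 18.8% and 22.4% with furosemide and 13.6%, 13.7% and 8.83% with vehicle, and neither pair of groups overlapped (exact permutation test p = 0.1 each). DCT cells thus held a larger part of the Umod counts in each furosemide library than in any vehicle library.

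**Figure D3:**
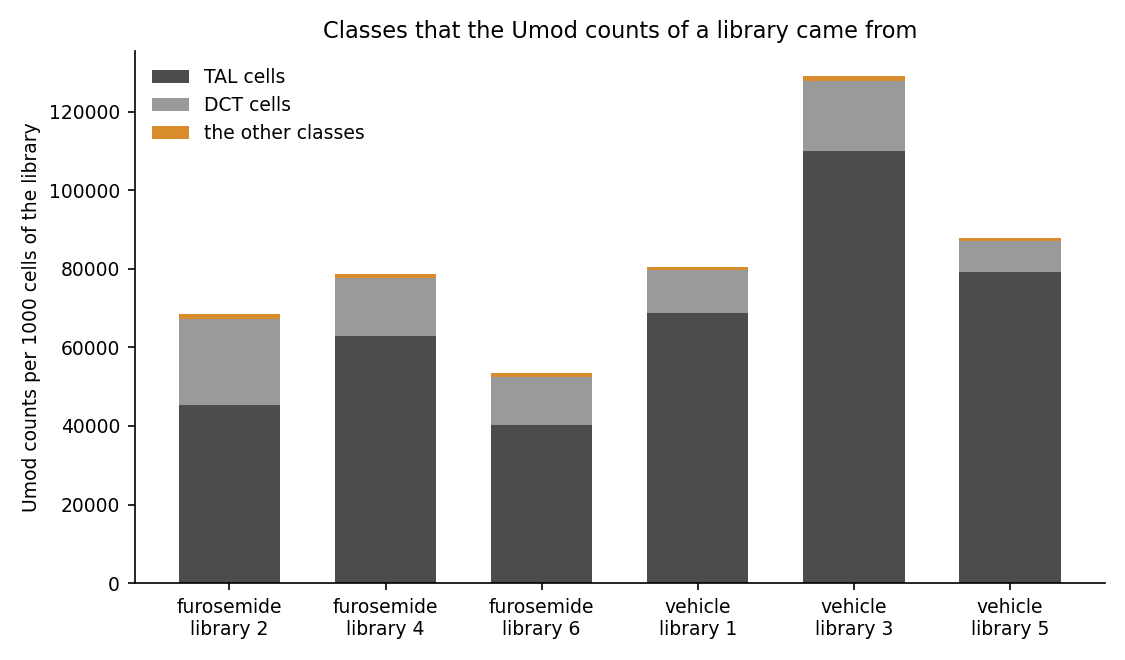
Umod counts per 1000 cells of a library (vertical, from 0), stacked by the class of the cells they came from, for each library (horizontal), furosemide left of vehicle. The TAL part is 40365 to 62765 in the furosemide libraries and 68758 to 110069 in the vehicle libraries, and the DCT part overlaps between treatments.

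The spread of Umod among single TAL cells was smaller in each furosemide library than in any vehicle library. The coefficient of variation, CV, over the cells of a library was 0.363, 0.370 and 0.368 in the furosemide libraries and 0.442, 0.371 and 0.378 in the vehicle libraries. The groups did not overlap (exact permutation test p = 0.1), though furosemide library 4 and vehicle library 3 nearly met, and the furosemide mean was lower by 0.0300. Without vehicle library 1, whose CV was the highest, it was lower by 0.0077, with no overlap still. At the lower end, the 10th percentile of TAL cells was 11.8%, 11.1% and 11.0% of a cell's counts with furosemide and 7.13%, 10.6% and 10.3% with vehicle. At the upper end, the 90th percentile overlapped between groups. DCT cells spread more widely, with a CV of 0.685 to 0.857 with furosemide and 0.698 to 0.834 with vehicle.

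The mosaic of the TAL held opposite differences. In TAL cells with Cldn10 counts and no Cldn16 count (Cldn10-only), Umod was 31.4%, 27.5% and 20.7% of counts in furosemide libraries 2, 4 and 6, against 12.8%, 15.7% and 17.1% in vehicle libraries 1, 3 and 5. In TAL cells with Cldn16 and no Cldn10 counts (Cldn16-only), it was 17.5%, 14.9% and 16.0% with furosemide and 20.4%, 23.6% and 22.6% with vehicle. Of these subsets, the Cldn10-only cells thus had more Umod in all 3 furosemide libraries, and the Cldn16-only cells in all 3 vehicle libraries. Cells with both claudins had 23.5%, 22.7% and 20.4% with furosemide and 20.8%, 24.9% and 26.0% with vehicle. In each vehicle library they had more Umod than either subset.

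Umod rose in Cldn10-only cells (log2 1.16 ± 0.21, edgeR's adjusted p = 0.0381, 6 of 242 genes or 2.48% called). DESeq2 (adjusted p = 0.000991) and limma-voom (adjusted p = 0.0417) called it too. The call of edgeR's test held without furosemide library 6 (adjusted p = 0.0251) and was lost when furosemide library 2 or 4 or vehicle library 1, 3 or 5 was left out, with changes of 0.93 to 1.26 and adjusted p up to 0.194. It was also lost with cells thinned to 500 counts (0.71, adjusted p = 0.109), with no filter on low counts (1.03, 0.0976) and with Slc12a1, Egf and Umod left out of the totals (1.10, 0.058). Scaling by library size alone moved the median of all genes in these cells by -0.35, and gave Umod 0.81 with an adjusted p of 0.0648; relative to that median the change was 1.08 with both scalings. In Cldn16-only cells Umod did not pass (-0.42 ± 0.17, adjusted p = 0.220, 2.75% of genes called), nor in cells with both claudins (-0.11 ± 0.14, adjusted p = 0.812, 0 of 293 genes called by edgeR, 36 at an unadjusted p under 0.05, 20 called by DESeq2 and 3 by limma-voom).

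The difference between the effects in Cldn10-only and Cldn16-only cells, a comparison added after the values were seen, was 1.43 ± 0.23 on the log2 scale (interaction with the library as a block, edgeR's adjusted p = 0.0656, 0 of 246 genes called, 21 at an unadjusted p under 0.05). It did not pass at these settings. It passed with scaling by library size alone (adjusted p = 0.0489), with no filter on low counts (0.0314), with thinned cells (0.0214) and without furosemide library 6 (0.0021). It did not pass without the library block (0.171), without any 1 of the other 5 libraries (0.0813 to 0.290) or with cells assigned to the claudin with more counts (0.62, adjusted p = 0.143).

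The cells in these subsets are not the same with and without the drug. Cldn10-only cells were 16.0%, 14.5% and 12.1% of TAL cells with furosemide and 37.0%, 29.6% and 31.0% with vehicle, while cells with both claudins averaged 68.8% with furosemide and 54.2% with vehicle. Cldn16 itself rose in TAL cells (0.600 ± 0.104% of counts with furosemide and 0.315 ± 0.013% with vehicle, SD, n = 3 each; log2 1.06 ± 0.20, edgeR's adjusted p = 0.0426), and a cell with any Cldn16 count is by definition outside the Cldn10-only subset. Cldn10 did not pass (-0.18 ± 0.17, adjusted p = 0.642). When TAL cells were instead assigned to the claudin with more counts, Umod changed by 0.30 ± 0.17 in cells with more Cldn10 (adjusted p = 0.428, 3.31% of genes called) and by -0.33 ± 0.16 in those with more Cldn16 (adjusted p = 0.362, 2.78% called). How far the shift of cells between subsets sets the Umod values was not tested. Median depth was 1419 counts with furosemide and 1251 with vehicle in Cldn10-only cells, and 1384 with furosemide and 1552 with vehicle in Cldn16-only cells.

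**Figure D4:**
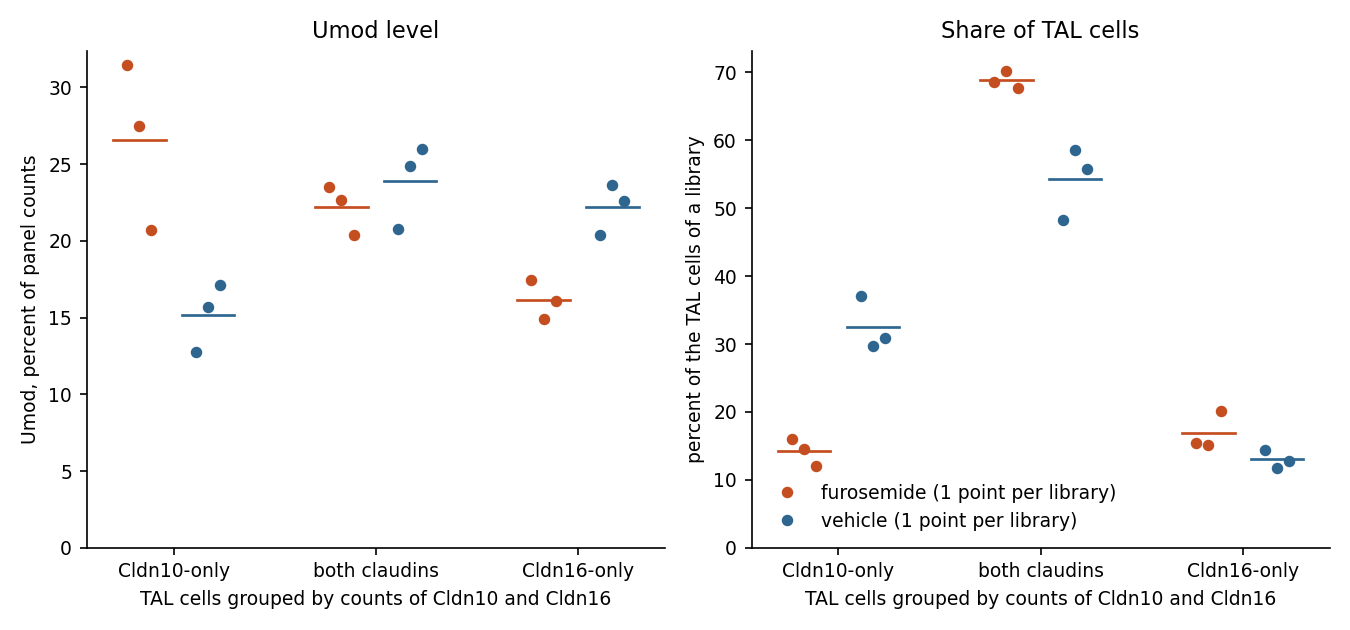
Umod as percent of panel counts (left panel) and share of the TAL cells of a library (right panel) in TAL cells with Cldn10 counts only, with both claudins and with Cldn16 counts only, 1 point per library and lines at the mean of 3 libraries, furosemide left of vehicle. Cldn10-only cells lie at 20.7% to 31.4% Umod with furosemide and 12.8% to 17.1% with vehicle, and their share of TAL cells is 12.1% to 16.0% with furosemide and 29.6% to 37.0% with vehicle.

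The same turn showed in how Umod went with other genes from cell to cell. The Spearman correlation of Umod with Cldn10 over the TAL cells of a library was 0.46, 0.45 and 0.36 in furosemide libraries 2, 4 and 6 and -0.36, -0.38 and -0.27 in vehicle libraries 1, 3 and 5. With Cldn16 it was -0.50, -0.39 and -0.22 with furosemide and 0.42, 0.38 and 0.25 with vehicle. With Egf it was -0.36, -0.24 and -0.26 with furosemide and 0.54, 0.42 and 0.32 with vehicle. With vehicle, TAL cells rich in Umod were thus rich in Egf and Cldn16, and with furosemide they were rich in Cldn10.

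Slc12a1 also turned, at 0.24, 0.16 and 0.12 with furosemide and -0.33, -0.34 and -0.26 with vehicle. Of the 166 genes with a count in at least 20% of TAL cells, 58 (34.9%) had opposite signs in all libraries of the treatments, 37 of them positive with furosemide and 21 positive with vehicle, and 103 (62.0%) did not overlap between treatments. These are descriptions: the cells of a library share its depth and its total, and shares of 1 total move against each other. With Umod left out of the totals, 58 genes again had opposite signs, and with thinned cells 48 had.

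In DCT cells the strongest correlations had the same sign in all 6 libraries. Umod went with Egf at 0.53, 0.60 and 0.55 with furosemide and 0.54, 0.48 and 0.48 with vehicle, and against Slc12a3, the thiazide-sensitive cotransporter that defines the DCT, at -0.53, -0.42 and -0.37 with furosemide and -0.46, -0.61 and -0.40 with vehicle. DCT cells with more Umod thus had less Slc12a3 and more Egf in all 6 libraries. Of 164 genes, 45 (27.4%) did not overlap between treatments and 6 (3.66%) had opposite signs, among them Hspa5, the endoplasmic reticulum chaperone BiP, at 0.11, 0.14 and 0.26 with furosemide and -0.02, -0.14 and -0.14 with vehicle, and Xbp1, a transcription factor of the unfolded protein response, at 0.05, 0.05 and 0.14 with furosemide and -0.07, -0.09 and -0.07 with vehicle. In TAL cells Hspa5 had 0.02, 0.10 and 0.10 with furosemide and -0.25, -0.26 and -0.27 with vehicle. Hspa5 and Xbp1 were picked after their values were seen, and other genes of endoplasmic reticulum stress did not turn in DCT cells. Atf4 had -0.22 to -0.10 with furosemide and -0.36 to -0.26 with vehicle. Atf3 had -0.13 to -0.11 with furosemide and -0.34 to -0.16 with vehicle, and Atf6 -0.03 to 0.02 with furosemide and -0.14 to -0.02 with vehicle. The rest of the 6 DCT genes with opposite signs were Edem3, Lpl, Map2k2 and Prkci. Of these, Lpl had -0.19 to -0.05 with furosemide and 0.07 to 0.12 with vehicle. With Umod left out of the totals, 3 DCT genes (1.83%) had opposite signs, and with thinned cells 6 had.

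By the mean over all 6 libraries, the TAL genes most like Umod from cell to cell were Gpx6 (0.21), Ckb (0.20), Ptger3 (0.14), Ccnd1 (0.14) and Lpl (0.13). Ckb is the brain-type creatine kinase and Ptger3 the prostaglandin E receptor EP3, which the TAL is known for. These means join unlike groups: Gpx6, a glutathione peroxidase, had 0.38 to 0.55 with furosemide and -0.11 to -0.02 with vehicle. The lowest were Fxyd2, which modulates the sodium pump (-0.31), Atf4, a transcription factor of the stress response (-0.28), and Clu, which encodes clusterin (-0.28). Atf4 was negative to the same extent in both groups, at -0.33 to -0.22 with furosemide and -0.30 to -0.25 with vehicle.

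**Figure D5:**
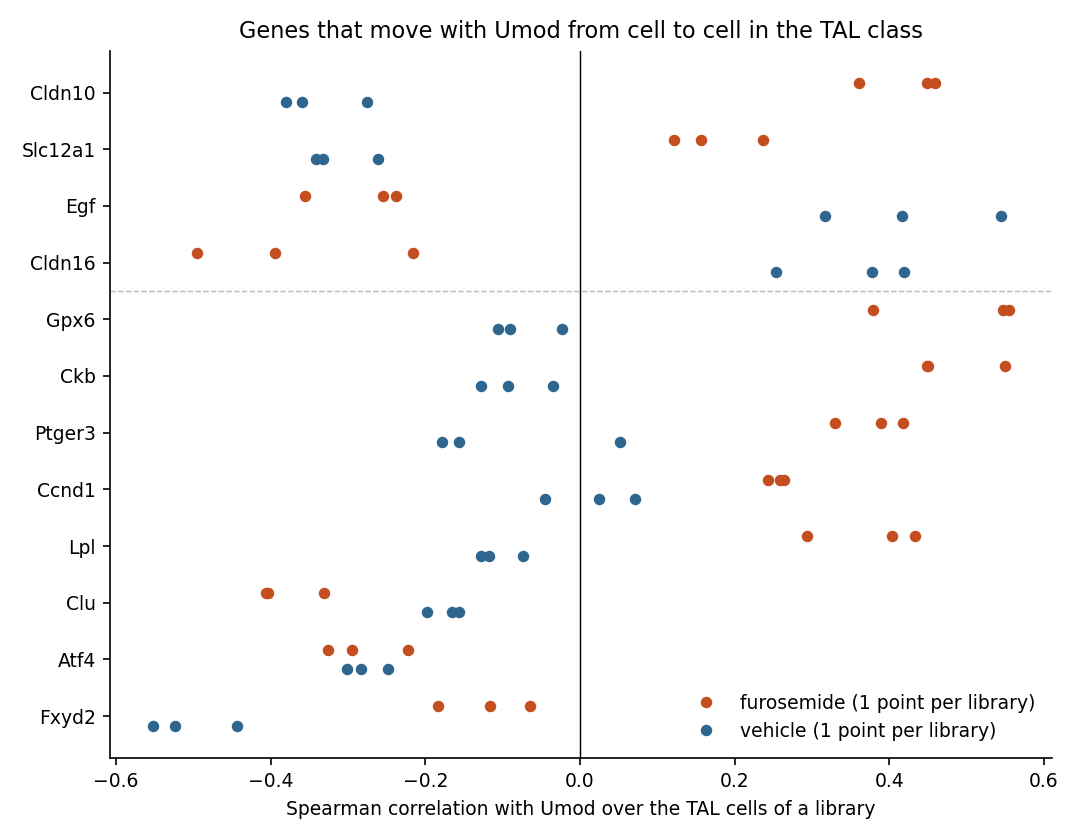
Spearman correlation with Umod over the TAL cells of a library (horizontal) for 12 genes (vertical), with 1 point per library, furosemide above vehicle. Above the dashed line are mosaic and companion genes, whose furosemide and vehicle points lie on opposite sides of 0, and below it are the 5 highest and 3 lowest genes by the mean over libraries.

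Across the 15 classes, the genes whose pattern was most like that of Umod were Ppp1r1a (Pearson's r = 0.913), Gpx6 (0.913), Egf (0.906), Nr0b2 (0.833) and Sfrp1 (0.80), over class means of log2(CPM + 1) and among 450 genes. The points share the 6 libraries and the panel total. Ppp1r1a, a protein phosphatase inhibitor, was nearly level between TAL (29064 CPM) and DCT (27449 CPM), whereas Umod, and Egf with 140159 CPM in TAL and 58617 CPM in DCT, were lower in the DCT. Sfrp1, a secreted Wnt inhibitor, was highest in DCT2. None of the 5 was high in BIC cells, where Egf had 187 CPM and Ppp1r1a 194 CPM.

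Among genes of TAL transport and identity, 22 of the 24 in the panel were tested in TAL cells, of which 4 rose and 1 fell, for a median log2 change of 0.13, against 0.00 over all 317 genes tested. The background of calls was 4.73%, and the list was chosen with earlier results of these data known. Among those that rose were Cldn16, Wfdc2, a secreted protein of the distal nephron (0.91 ± 0.15, edgeR's adjusted p = 0.0265), and Pappa2, a protease of the macula densa (2.89 ± 0.30, 0.0061). Fxyd2 fell by 1.26 ± 0.13 on the log2 scale (0.0061). Pappa2 counts were in 51 of 1498 TAL cells (3.40%) with furosemide and 32 of 2624 (1.22%) with vehicle, and counts of Ptgs2, also of the macula densa, in 61 (4.07%) with furosemide and 61 (2.32%) with vehicle. Summed, these 2 markers held 0.0222% to 0.0443% of TAL counts with furosemide and 0.00589% to 0.0120% with vehicle. Markers of the thin limb held 0.676% to 0.731% with furosemide and 1.05% to 1.19% with vehicle, and their part in the Umod values was not tested.

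Known partners, proteases and regulators of uromodulin had 11 members in the panel, of which 6 were tested in TAL cells, and none was called (edgeR, with Slc12a3 at an unadjusted p under 0.05; 0 called by DESeq2 and by limma-voom). Kcnj1, the potassium channel ROMK that returns potassium to the lumen for Slc12a1, had 9501 TMM-scaled CPM with furosemide and 7732 with vehicle in TAL cells (log2 change 0.30 ± 0.15, edgeR's adjusted p = 0.410). In DCT cells 7 members were tested and 1 was called, Slc12a1, which fell as given above.

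Of the genes of endoplasmic reticulum stress, which uromodulin that fails to fold is known to set off, 6 were tested in TAL cells and 0 were called by edgeR, DESeq2 or limma-voom, with 0 at an unadjusted p under 0.05 in any of them. The median log2 change was -0.04. Atf3, the highest of them, had 17959 TMM-scaled CPM with furosemide and 24009 with vehicle (-0.42 ± 0.25, edgeR's adjusted p = 0.495), and Hspa5 had 3346 with furosemide and 3078 with vehicle (0.12 ± 0.20, 0.777). Of 8 tubular injury genes tested in TAL cells, 0 were called by the 3 tools. Spp1 and Vim had an unadjusted p under 0.05 with edgeR, and so did Clu with DESeq2. In DCT cells 6 injury genes were tested, where 13 of 275 genes or 4.73% were called by edgeR. Spp1 rose there and was called by all 3 tools, and Lcn2 was called by DESeq2 alone.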

How the data were processed

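Single-cell counts came from BD Rhapsody whole-transcriptome and targeted libraries, per the labels' protocols, and Bowtie2 2.2.9 was used, per the submitters' processing notes. The deposited table holds whole-number counts per cell and gene for a panel of 456 genes. Doublets and a mixed cluster had been taken out and cell numbers equalised between treatments by the authors, per the file names. Not given in the sources used here were the genome build and the counting step, and with it whether counts are of molecules or reads. A share of counts is therefore a share within the panel, and intervals and limits cover counting error only.

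The library, treatment, class and second clustering of each cell came from the deposited annotation. Libraries could not be joined to the replicate numbers of the sample titles, so samples are named by library. Genes, lists and tests were chosen with earlier results of these data known. Counts were summed per library and class (at least 10 cells) and fitted over all panel genes by the robust quasi-likelihood test of edgeR 4.0.16 (R 4.3.3), after filterByExpr and TMM scaling, with Benjamini-Hochberg adjustment and a threshold of 0.05. Interactions had the library as a block. CPM are plain unless called TMM-scaled. Shares of positive cells were compared by two-sided exact permutation of the 6 libraries, which cannot go below p = 0.1. Cells were thinned to 500 counts (seed 1), and shallower ones left out, to compare shares at 1 depth. Genes named beside Umod were the 5 most like it over the 15 classes, the 5 highest and 3 lowest by Spearman correlation in TAL cells, the called members of each list, its TAL companions Slc12a1, Egf, Cldn16 and Cldn10, and the 2 highest members of a list, besides those said to be picked later. DESeq2 1.42.0 and limma 3.58.1 (voom), other scalings, filters, clusters and each library left out were alternatives. The fits were tested on simulated data.

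The promoter is from RefSeq's GRCm38.p6 table, in which Umod, Egf and Slc12a1 matched by symbol. Some results are not reported here.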

Additional observations from a re-analysis of the deposited data

Results flagged for a closer look

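Umod in the TAL mosaic was singled out because the log2 ratio of its level in Cldn10-only to that in Cldn16-only cells was above 0 in every furosemide library (0.85, 0.88 and 0.37) and below 0 in every vehicle library (-0.67, -0.59 and -0.40). The difference of the treatment effects was 1.43 on the log2 scale and did not pass edgeR's test of that difference (adjusted p = 0.0656). With cells assigned to the claudin with more counts, the log2 ratio was 0.48, 0.51 and 0.26 with furosemide. With vehicle that ratio was -0.23, -0.17 and 0.0018, so it was not below 0 in every vehicle library.

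The Spearman correlation of Umod with Egf, Cldn10, Cldn16 and Slc12a1 over the TAL cells of a library had 1 sign in all furosemide libraries and the other in all vehicle libraries. The mean with furosemide minus that with vehicle was -0.71 for Egf, 0.76 for Cldn10, -0.72 for Cldn16 and 0.48 for Slc12a1. These differences were not tested.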

How the results depend on the processing

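Of the recomputed values, 507 kept their direction and their side of the threshold or moved within the spread, and 42 changed sign. Another 10 lost the threshold, 5 gained it, and 2 moved beyond the spread. Values compared by exact permutation, which cannot go below p = 0.1, were judged by direction alone. No paired analysis was possible because the table carries library numbers that could not be joined to the replicate numbers of the titles. The Umod effect in single classes, called under none of the alternatives, turned sign as follows: in AIC to 0.10 without cells of a shared barcode and 0.75 in the second clustering's AIC sub2, in DCT to -0.050 by library size alone, in OMCD to -0.048 (thinned), -0.49 (without the top 5% of totals) and -0.30 (without shared barcodes), and in podocytes to 0.033 (limma-voom), 0.039 (thinned) and 0.053 (equal cell numbers). Leaving out each library gave -0.53 to 0.46 in BIC, -0.99 to 0.29 in CCD, -0.14 to 0.31 in DCT, -0.46 to 0.25 in DCT2, -0.35 to 0.61 in OMCD, -0.73 to 0.79 in podocytes, -0.29 to 0.10 in proximal s1/s2, -0.020 to 0.26 in TAL and -1.26 to 0.31 in mystery cells. For differences in positive cells (percentage points) it gave -0.823 to 4.04 in BIC, -0.314 to 0.00843 in DCT, -4.21 to 5.43 in OMCD, -0.210 to 0.0142 in TAL, -3.17 to 14.1 in thin limb and -11.3 to 0.796 in mystery cells. At a minimum of 2 counts the difference in AIC was 1.39 points, and at 5 counts those in immune cells and podocytes were 0.0800 and 0.747 points. Over all cells, the change was -0.49 with DESeq2 (adjusted p = 0.0197) and 0.024 with class shares held. In Cldn10-only cells, adjusted p was 0.0648 by library size alone (0.81), 0.0976 with no filter (1.03), 0.058 with Slc12a1, Egf and Umod left out of totals (1.10), 0.109 when thinned (0.71) and 0.428 in cells with more Cldn10 (0.30), and leaving out each library gave 0.93 to 1.26. The Cldn10-only against Cldn16-only difference was 1.25 by library size alone (0.0489), 1.39 with no filter (0.0314) and 1.02 when thinned (0.0214), and 1.32 to 1.69 with each library left out, passing without furosemide library 6. With no replicate block by library it was 1.44 (0.171). Thinning moved the correlation differences to -0.60 for Cldn16 and 0.43 for Slc12a1. The cause of these changes was not tested. DESeq2 called 32 genes in TAL (15 with edgeR), 22 in DCT (13), 43 over all cells (19), 15 in thin limb (5), 19 in Cldn10-only cells (6) and 16 in Cldn16-only cells (6). Low classes held 61 to 1876 Umod counts over all libraries, which limits what their changes can show.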
